A study of Mus musculus with 12 samples.

Results

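The interleukin-10 and interleukin-17 genes of a mouse immune panel were read as 7 genes in hippocampal microglia: 4 ligands (Il10, Il17a, Il17b and Il17f) and 3 receptor chains (Il10ra, Il10rb and Il17ra). They were chosen by gene name, and all 7 were found among the 545 endogenous genes of the panel. Of these 7, 5 passed the filter on low counts that kept 357 genes for testing (Il10, Il10ra, Il10rb, Il17f and Il17ra), and 2 did not (Il17a and Il17b). Microglia are the macrophages that live in the brain. They had been sorted from the hippocampus of male Balbc mice at postnatal day 28, without further genotype, transgene or drug named in the labels. The control group held 6 samples. The other 6 samples came from pups that had undergone brief daily separation (BDS), in which they spent 15 min of each postnatal day from 1 to 21 away from the mother. The submitters' design text states that all samples came from different litters. The control and BDS samples shared the same isolation by Percoll gradient and sorting, 2 ng of RNA, 5 rounds of PCR and hybridization to barcoded probes, which are counted without sequencing.

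Interleukin-10 is a cytokine that restrains inflammatory gene expression in macrophages. It binds a receptor made of a ligand-specific chain, encoded by Il10ra, and a chain shared with other cytokines of its family, encoded by Il10rb, and signals mainly through Jak1, Tyk2 and Stat3. Interleukin-17A and interleukin-17F are related cytokines made mostly by type 17 T cells and innate lymphocytes. They act on tissue cells through a receptor that contains the chain encoded by Il17ra, with the adaptor Traf3ip2 and Traf6 carrying the signal to NF-kB. In the brain, microglia are a known target of both cytokines.

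Il17a and Il17f are neighbours in the genome, and both sat at or near the background of the assay here. RefSeq promoter entries (build GRCm38.p6) are shown for these 2 of the 7 genes. Il17b, below background in 12 samples, and Il10, below it in 7, are not shown, nor are the receptor chains. The 2 genes shown therefore do not tell how often the other members hold the matches marked below. The 250 bases before each start site are given 5′ to 3′ on the strand of the gene, Il17a from chr1:20730655-20730904 on the plus strand and Il17f from chr1:20784271-20784520 on the minus strand. Capitals mark matches on either strand to TATAAA, the core of the TATA box, and to AGGTCA, a half-site read by several nuclear receptors; the matches do not overlap.
Il17a: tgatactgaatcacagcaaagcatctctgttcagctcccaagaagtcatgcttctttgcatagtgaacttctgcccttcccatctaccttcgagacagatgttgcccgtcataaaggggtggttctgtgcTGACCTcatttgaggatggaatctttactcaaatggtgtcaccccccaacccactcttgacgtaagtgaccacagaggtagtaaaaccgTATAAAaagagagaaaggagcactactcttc
Il17f: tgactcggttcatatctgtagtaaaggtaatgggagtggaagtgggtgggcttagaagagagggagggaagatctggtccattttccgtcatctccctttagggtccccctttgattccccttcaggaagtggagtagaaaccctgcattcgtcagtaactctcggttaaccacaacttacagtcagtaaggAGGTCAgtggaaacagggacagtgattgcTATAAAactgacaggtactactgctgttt
In Il17a, TATAAA lay 31 to 26 bases before the start, and AGGTCA lay on the opposite strand, printed as TGACCT, 120 to 115 bases before it. In Il17f, TATAAA lay 29 to 24 bases and AGGTCA 58 to 53 bases before the start, both on the strand of the gene. Of 32851 promoter windows of this length, 12.4% held TATAAA, 14.0% held AGGTCA and 1.89% held both. These matches describe the letters only.

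Total counts were 893936 to 1409376 in controls against 641756 to 1171355 in BDS. Counts were scaled by the geometric mean of 6 housekeeping genes in each sample, and the result is called a normalized count. BDS 21, BDS 25 and BDS 55 had the lowest scaling factors (0.59, 0.628 and 0.827) and count ratios of Rpl19 to Polr2a of 0.79, 0.61 and 0.47, against 0.11 to 0.27 in the other 9 samples. Among the housekeeping genes used, the normalized counts of Polr1b differed most between groups (log2 difference, BDS minus control, of -0.22), followed by Gapdh (0.13), Tbp (-0.09), Sdha (0.08), Oaz1 (0.06) and Alas1 (0.03). All 10 microglial markers on the panel, among them Cx3cr1, Csf1r and Trem2, were above background in all 12 samples. Of the 18 T cell markers on the panel 7 were kept, with Cd27, Cd5 and Tcf7 above background in all 12 samples, Lck in 11, Foxp3 in 9, and Cd4 and Cd8b1 in 6. Cd3d, Cd3e, Cd247, Cd28, Zap70 and Thy1 were above background in 0 of 12 samples. Of the 7 kept, Lck was lower in BDS at an unadjusted p under 0.05 (35.4 ± 6.7 normalized counts in controls against 24.5 ± 4.6 in BDS, SD, n = 6; log2 fold change -0.53, edgeR adjusted p = 0.25) and 0 were higher. Of all 357 genes tested, 11.5% were lower and 0.84% higher at that unadjusted threshold. Summed normalized counts over the 18 T cell markers were 660.0 to 778 in controls against 688 to 807 in BDS, of which Cd27 made up 52.9%. Of the 10 innate lymphocyte markers 5 were kept, and Eomes, Gata3 and Gzmb were above background in 0 of 12 samples. Their sums were 5111 to 6261 and 4660.3 to 5780.1, of which Il7r made up 93.9%; without it they were 276 to 545 and 262 to 365. The part of these lymphocyte markers in the results was not tested. In bulk samples, fewer cells of a type and less RNA per cell cannot be told apart.

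The ligands were read first, on counts before scaling, against the 8 negative-control probes of the same sample, which match no mouse transcript. A probe was called above background where its count exceeded the mean plus 2 SD of those probes, a limit that ran from 15.3 to 21.8 counts over the samples. Il17a and Il17b stayed below it in all 12 samples, Il10 exceeded it in 5 and Il17f in 10. The limit is set on unscaled counts, so a sample with fewer counts in all has less chance to pass it.

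Il17a, the founding cytokine of its family, had counts of 4, 7, 8, 14, 15 and 11 in controls 5, 9, 13, 27, 44 and 54. In BDS 7, 21, 25, 35, 43 and 55 it had 10, 6, 8, 6, 15 and 12 counts. The groups overlapped throughout, and the mean over all samples of 9.67 counts was exceeded by 4 of the 8 negative-control probes. No fold change is given for Il17a, since neither group was measured above background.

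Il17b, a more distant family member made mainly outside the immune system, had 11, 3, 10, 10, 7 and 8 counts in the same order of controls and 8, 9, 11, 8, 9 and 8 counts in BDS. Its mean of 8.50 counts was exceeded by 5 of the 8 negative-control probes. After scaling, BDS 21 and BDS 25 read 15.3 and 17.5 normalized counts against 2.9 to 13.0 in controls, although their counts were 9 and 11; the scaling divides by factors of 0.59 and 0.628 in these samples. The authors' deposited table gives Il17b a fold of 1.44 and lists it at 0 percent of samples above background.

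Il17f, which is secreted as a homodimer or together with interleukin-17A, had 25, 23, 23, 27, 25 and 26 counts in the controls. In BDS 7, 21, 25, 35, 43 and 55 it had 22, 31, 10, 22, 29 and 18 counts. All 6 controls and 4 BDS samples lay above the limit, while BDS 25 and BDS 55, with total counts of 646588 and 793314, lay below it. BDS 21 had the lowest total count of all samples, 641756, and the highest count of Il17f, 31. The control counts spanned only 23 to 27, and the BDS counts reached to both sides of that range. Il17f averaged 23.4 counts over all samples, against 17.5 for the highest of the 8 negative-control probes, and 42.0 percent of the endogenous genes had a lower mean.

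Normalized counts of Il17f were 23.0 ± 3.9 in controls against 26.1 ± 13.2 in BDS (SD, n = 6). The log2 fold change was 0.16 ± 0.25 (SE; 95% interval -0.37 to 0.70; edgeR quasi-likelihood test, adjusted p = 0.745), and a difference was not detected. BDS 21 alone read 52.6 normalized counts, and without it the log2 fold change was -0.11. It was also below 0, at -0.41 in limma, after subtraction of the mean negative control. Il17a, with which Il17f is often expressed in type 17 lymphocytes, was not above background in any of the 10 samples in which Il17f was.

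Il10 had counts of 17, 18, 13, 20, 36 and 19 in the controls, in the same order. In BDS it had 18, 11, 15, 16, 23 and 14 counts. The limit was passed in controls 5, 9, 44 and 54 and in BDS 43. Only control 44 lay well clear of it, with 36 counts against a limit of 20.1, and with a limit of the mean plus 3 SD it was the one sample above background.

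Normalized counts of Il10 were 19.0 ± 8.5 in controls against 18.5 ± 2.8 in BDS (SD, n = 6). The log2 fold change was -0.04 ± 0.25 (SE; 95% interval -0.57 to 0.49; edgeR, adjusted p = 0.936), and its sign depended on control 44, without which it was 0.23. The authors' deposited table lists Il10 at 42 percent of samples above background, with a fold of 0.98 and a p of 0.9361, and Il17f at 83 percent, with a fold of 1.15.

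**Figure D1:**
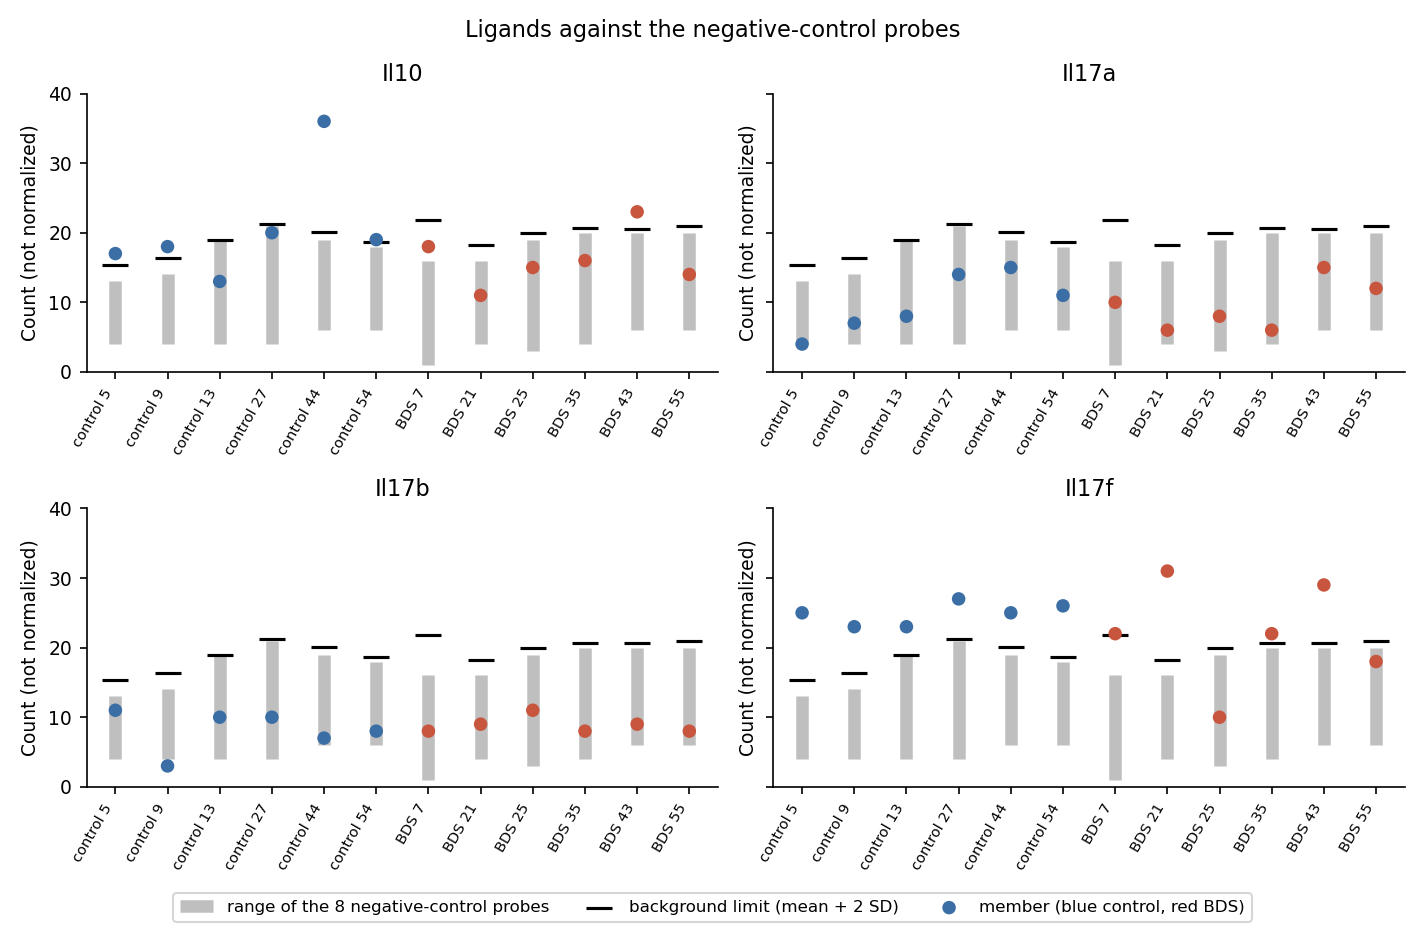
Counts before scaling (vertical axis) of the 4 ligands in each of the 12 samples (points, blue control and red BDS), with the range of the 8 negative-control probes (grey bars) and the background limit of the sample (black dash, mean plus 2 SD). Il17a and Il17b lie below the limit in all samples, Il10 stands clear of it only in control 44 at 36 counts, and Il17f lies above it in all controls and 4 BDS samples.

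The receptor chains were far above background in every sample, with counts at least 105 times the limit for Il17ra, 134 times for Il10rb and 226 times for Il10ra. Il17ra, the signalling chain of the interleukin-17 receptor, was lower in BDS at an unadjusted p under 0.05, and Il10ra and Il10rb were not. None of the 3 passed the adjusted threshold of 0.05.

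Controls 5, 9, 13, 27, 44 and 54 had 4360, 5009, 4684, 4804, 4756 and 4795 normalized counts of Il17ra. BDS 7, 21, 25, 35, 43 and 55 had 4381, 3280, 3336, 4217, 4715 and 2705 normalized counts. The controls lay close together, and 4 BDS samples lay below the lowest of them, 3 of these by a wide gap. Those 3 were BDS 21, BDS 25 and BDS 55, the samples with the lowest housekeeping counts; BDS 7 and BDS 43 lay within the control range and BDS 35 just under it.

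The group values of Il17ra were 4735 ± 213 in controls against 3773 ± 778 in BDS normalized counts (SD, n = 6), and 6 of 6 BDS samples were under the mean of the controls. The spread over samples was 4.51 percent of the mean in controls against 20.6 percent in BDS. The log2 fold change was -0.33 ± 0.12 (SE; 95% interval -0.58 to -0.07; edgeR quasi-likelihood test, unadjusted p = 0.0157, adjusted p = 0.267), rank 21 of 357 by p. A two-sided exact permutation test of the normalized counts gave p = 0.011. Among all 357 genes, 11.5% were lower in BDS at an unadjusted p under 0.05, and Il17ra was the single member in that share.

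Leaving out BDS 21, BDS 25 and BDS 55 brought Il17ra to a log2 fold change of -0.093 ± 0.07 (SE; edgeR, unadjusted p = 0.18). The mean of those 3 samples was 3107 normalized counts and that of the other 3 BDS samples 4438. The part of the low housekeeping counts and of the Rpl19 to Polr2a ratios in this result was not tested. Scaling by TMM, which centres each sample on the tested genes, gave -0.24 (unadjusted p = 0.069 in edgeR; exact permutation p = 0.084). Over all genes tested the median lay at -0.10 on the log2 scale with housekeeping scaling and at -0.0093 with TMM. The authors' deposited table gives Il17ra a fold of 0.81 and a p of 0.0261.

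Il10ra, the ligand-binding chain of the interleukin-10 receptor, had 9039, 8634, 8800.2, 9388, 8671 and 10101 normalized counts in the controls, in the same order. In BDS 7, 21, 25, 35, 43 and 55 it had 10396, 7709, 7196, 8063, 8508 and 7919 normalized counts. BDS 7 held the highest value of all 12 samples and the other 5 BDS samples lay below the lowest control, so no BDS sample fell within the control range.

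For Il10ra this gave 9106 ± 562 in controls against 8298 ± 1114 in BDS normalized counts (SD, n = 6). The log2 fold change of -0.13 ± 0.09 (SE; 95% interval -0.32 to 0.05; edgeR, adjusted p = 0.475; exact permutation p = 0.15, two-sided) was close to the median of the tested genes. Without BDS 7 it was -0.21 (edgeR, unadjusted p = 0.011, adjusted p = 0.094). Without BDS 21, BDS 25 and BDS 55 it was -0.019, and with TMM scaling -0.04.

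Il10rb, the chain shared with the receptors of interleukin-22 and lambda interferons, had 4773, 4908, 4565, 4747, 4676 and 4505 normalized counts in the controls, a spread of 3.12 percent of the mean. In BDS 7, 21, 25, 35, 43 and 55 it had 4320, 4137, 4401, 4291, 5055 and 3969.8 normalized counts. BDS 43 was above every control and the other 5 BDS samples were below every control.

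Il10rb averaged 4696 ± 147 in controls against 4362 ± 372 in BDS normalized counts (SD, n = 6). The log2 fold change was -0.11 ± 0.07 (SE; 95% interval -0.26 to 0.05; edgeR, adjusted p = 0.482; exact permutation p = 0.076, two-sided). It was -0.15 without BDS 43 (edgeR, unadjusted p = 0.034, adjusted p = 0.30), -0.04 without BDS 21, BDS 25 and BDS 55, and -0.01 with TMM. The authors' deposited table gives folds of 0.92 for Il10ra and 0.94 for Il10rb, with p-values of 0.1850 and 0.1452.

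**Figure D2:**
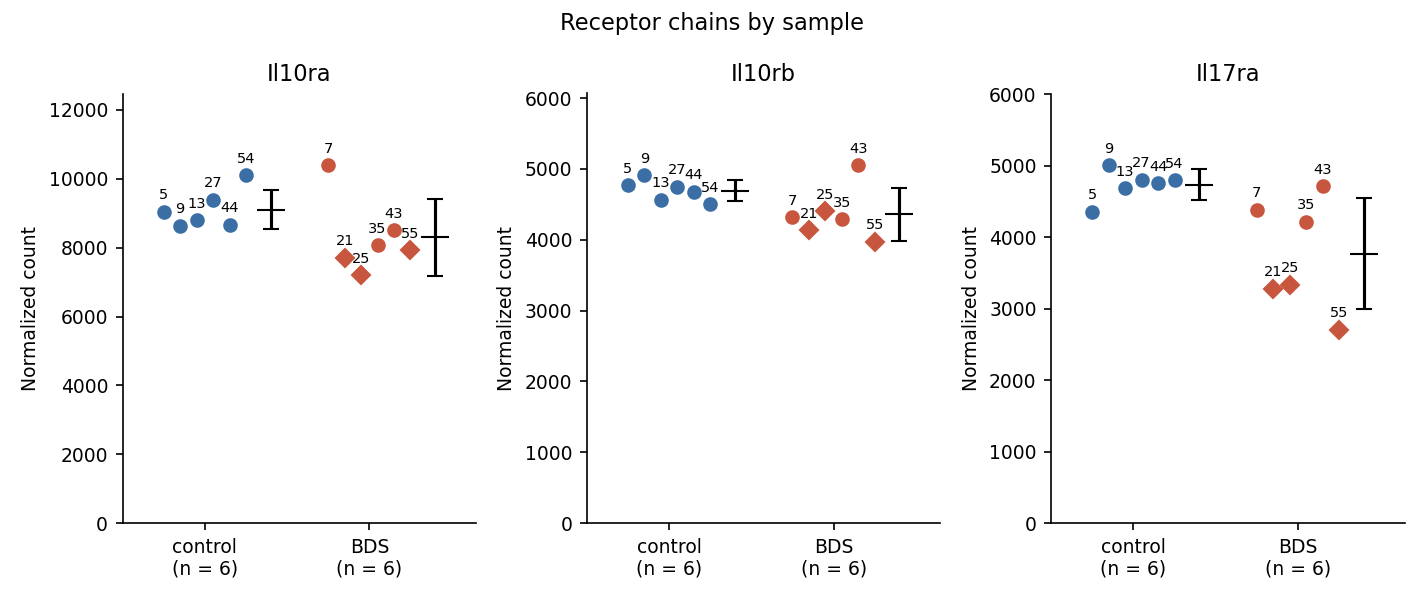
Normalized counts (vertical axis, from 0) of Il10ra, Il10rb and Il17ra in 6 control (blue) and 6 BDS (red) samples, labelled by sample number; diamonds are BDS 21, BDS 25 and BDS 55, and black bars are mean ± SD. The 3 diamonds of Il17ra lie at 2705 to 3336, apart from the other BDS samples at 4217 to 4715, and in Il10ra BDS 7 lies above all controls.

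Of the 5 members tested, 4 had log2 fold changes below 0, and their median was -0.11. Over all 357 genes, 236 (66.1%) were below 0, with a median of -0.10. At an unadjusted p under 0.05 in either direction, 1 of the 5 members was called, against 12.3% of all genes; higher in BDS were 0 of the 5 members and 0.84% of all genes. With edgeR 0 genes passed the adjusted threshold, 44 reached an unadjusted p under 0.05, of which 41 were lower in BDS and 3 higher. DESeq2 called 0 at its adjusted threshold and 46 unadjusted. With TMM scaling the 2 directions held 14 and 18 genes. The normalized counts of controls and BDS overlapped for all 5 members; they did not overlap for 1.12% of all genes.

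**Figure D3:**
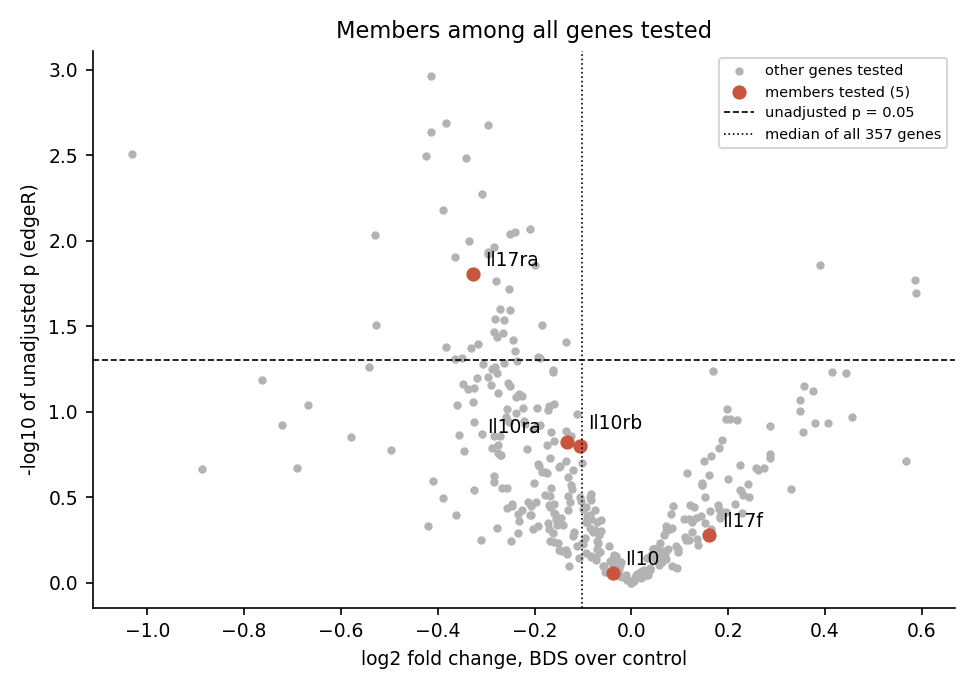
Log2 fold change, BDS over control (horizontal axis), against -log10 of the unadjusted p (vertical axis) for the 357 genes tested with edgeR, with the 5 tested members in red. Il17ra lies at -0.33 above the line of an unadjusted p of 0.05, while Il10ra and Il10rb lie close to the dotted median of all genes at -0.10, and Il10 and Il17f lie at the bottom.

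Ratios between 2 receptor chains in the same sample do not depend on any scaling, and only their change from sample to sample is read, because probes differ in efficiency. The count ratio of Il17ra to Il10rb was 0.913, 1.02, 1.03, 1.01, 1.02 and 1.06 in the controls. In BDS 7, 21, 25, 35, 43 and 55 it was 1.01, 0.793, 0.758, 0.983, 0.933 and 0.681. BDS 21, BDS 25 and BDS 55 thus stood below every control, and the other 3 BDS samples lay within the control range.

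The mean ratio of Il17ra to Il10rb was 1.01 ± 0.05 in controls against 0.860 ± 0.135 in BDS (SD, n = 6). For Il17ra to Il10ra it was 0.522 ± 0.040 and 0.455 ± 0.077, with 4 BDS samples below the lowest control, here BDS 7, 21, 25 and 55. The ratio of Il10rb to Il10ra, the chains of 1 receptor, was 0.518 ± 0.041 and 0.532 ± 0.070, with BDS 7 lowest at 0.415 and BDS 25 highest at 0.612. On the log2 scale the group differences (BDS minus control) were -0.24, -0.21 and 0.03 for these ratios. Without BDS 21, BDS 25 and BDS 55 they were -0.046, -0.068 and -0.022. These ratios are descriptions with no test.

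**Figure D4:**
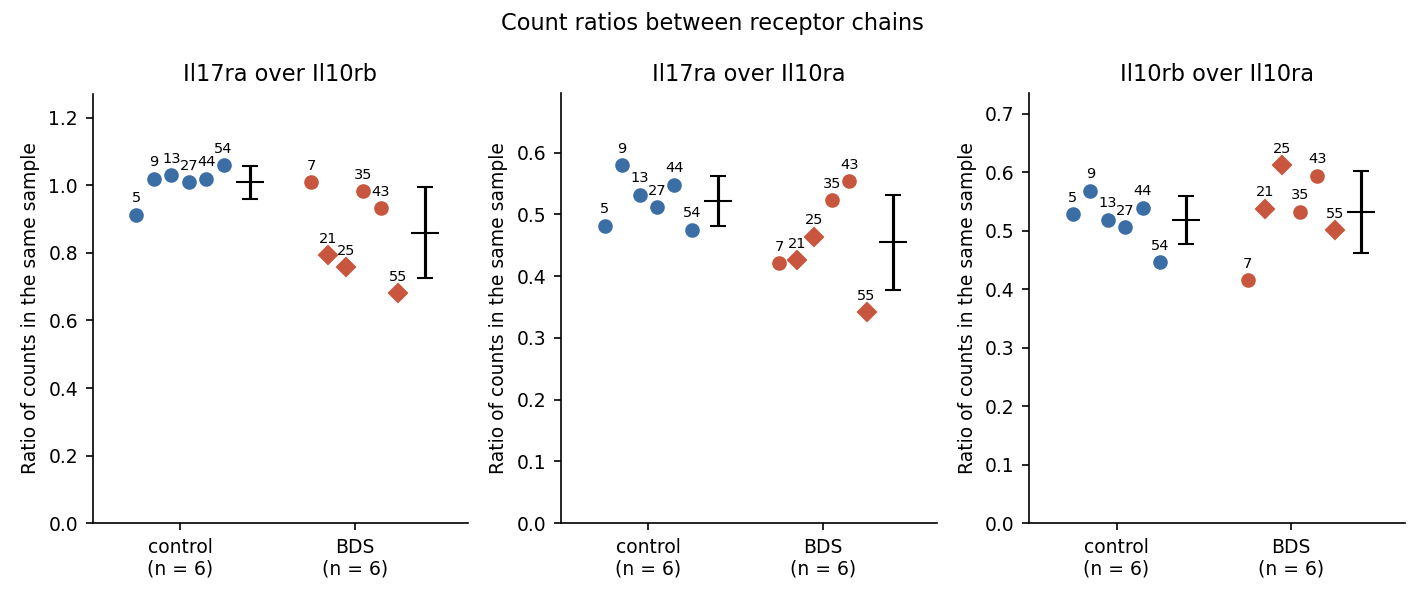
Ratio of counts of 2 receptor chains in the same sample (vertical axis, from 0) for 6 control (blue) and 6 BDS (red) samples, labelled by number, with diamonds for BDS 21, BDS 25 and BDS 55 and black bars for mean ± SD. Il17ra over Il10rb lies at 0.681 to 0.793 in the diamonds and at 0.913 to 1.06 in all other samples, whereas Il10rb over Il10ra overlaps between the groups.

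The pathway of the interleukin-10 receptor was read from a list of 6 signalling genes, all kept for the test. Of these, 5 had log2 fold changes below 0, 1 was lower in BDS at an unadjusted p under 0.05 and 0 were higher, with a median of -0.15. Over all genes tested 66.1% were below 0, 11.5% were lower and the median was -0.10. Stat3, the main mediator of interleukin-10 signals, had 688 ± 84 normalized counts in controls against 600.0 ± 102 in BDS (SD, n = 6), with a log2 fold change of -0.20 ± 0.12 (SE; edgeR, unadjusted p = 0.12).

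Of 11 listed target genes of interleukin-10 in macrophages, 8 were on the panel and 5 were kept, of which 2 were lower in BDS at an unadjusted p under 0.05 and 0 were higher, with a median of -0.25. Over all genes tested 11.5% were lower, with a median of -0.10. The 2 lower target genes were Il4ra, an interleukin-4 receptor chain, at a log2 fold change of -0.42 ± 0.12 (SE), and Tnfaip3, an inhibitor of NF-kB, at -0.38 ± 0.17 (SE). Without BDS 21, BDS 25 and BDS 55 the values were -0.38 for Il4ra and -0.13 for Tnfaip3. With TMM scaling the unadjusted edgeR p was 0.00316 for Il4ra and 0.069 for Tnfaip3. Il10 itself is on this list. The scavenger receptor Cd163, often raised by interleukin-10, was above background in 0 of 12 samples. Of the other ligands listed for the family, Il19, Il20 and Il22 were also above background in 0 of 12 samples, and the soluble receptor gene Il22ra2 in 3. The lambda interferon gene Il28a, which was not on that list, was above background in 6 samples.

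Outside the members, 3 further genes of the interleukin-17 family and its receptors were on the panel. Il17rb, a receptor chain for interleukin-17B and interleukin-25, was above background in all 12 samples, at 28.5 ± 4.9 normalized counts in controls against 36.8 ± 9.4 in BDS (SD, n = 6; log2 fold change 0.35 ± 0.20, SE; edgeR, unadjusted p = 0.099), and at 0.06 on the log2 scale without BDS 21, BDS 25 and BDS 55. Its counts before scaling did not exceed 41. Il25 and Il17re were above background in 0 of 12 samples.

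Signalling genes downstream of the interleukin-17 receptor numbered 18 on the panel, of which 16 were kept. Of these 12 were below 0, 2 were lower in BDS at an unadjusted p under 0.05 and 0 were higher, with a median of -0.09; over all genes tested 66.1% were below 0, 11.5% were lower and the median was -0.10. Nfkb1, an NF-kB subunit, had 3765 ± 191 normalized counts in controls against 3162 ± 510 in BDS (SD, n = 6), and Traf6, the ubiquitin ligase of the receptor complex, had 1546 ± 123 and 1286 ± 225. When BDS 21, BDS 25 and BDS 55 were left out, their log2 fold changes went from -0.25 to -0.08 and from -0.27 to -0.06, and with TMM scaling their unadjusted edgeR p-values were 0.183 and 0.125.

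Of 19 listed target genes of interleukin-17, 13 were on the panel and 7 were kept. Of these 7, 1 was lower (Tnfaip3) and 1 higher (Il6) at an unadjusted p under 0.05, with a median of -0.05. Over all genes tested 11.5% were lower, 0.84% were higher and the median was -0.10. Il6, a cytokine, was above background in 6 of 12 samples, at 15.4 ± 3.2 normalized counts in controls against 23.7 ± 8.1 in BDS (SD, n = 6). BDS 25 alone read 39.8. With TMM scaling the unadjusted edgeR p of Il6 was 0.0102 and that of Tnfaip3 0.069. The chemokine genes Cxcl1 and Cxcl3 and the growth factor gene Csf2, which interleukin-17 raises in many tissues, were above background in 0 of 12 samples.

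Genes tied to type 17 lymphocytes were read as a further list, of which 17 were on the panel and 12 were kept. Of these 8 were below 0, 3 were lower in BDS at an unadjusted p under 0.05 and 0 were higher, with a median of -0.14, against 66.1% below 0, 11.5% lower and a median of -0.10 over all genes tested. The 3 were Il6st, the shared receptor chain of the interleukin-6 family (log2 fold change -0.38), Ccr6, a chemokine receptor (-0.21), and the transcription factor gene Maf (-0.26), each above background in all 12 samples. Without BDS 21, BDS 25 and BDS 55 they were -0.21, -0.11 and -0.11. With TMM scaling the unadjusted edgeR p was 0.0139 for Il6st, 0.124 for Ccr6 and 0.112 for Maf. The receptor chain genes Il23r and Il12rb1 and the cytokine gene Il22, which type 17 lymphocytes express, passed the background limit in 0 of 12 samples. None of the genes of these lists passed the adjusted threshold (edgeR).

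Patterns over the 12 samples were compared by the root mean square difference of log2 normalized counts after each gene was standardised, where 0 means the same pattern. For Il17ra the closest of the other 356 genes were Cmklr1, a chemerin receptor (0.28), Notch1 (0.32) and Ifnar1, an interferon receptor chain (0.32), against a median of 1.37. Il10rb was closest to Npc1 (0.57), Notch1 (0.58) and Nfkb1 (0.59), and Il17ra came next at 0.62. Il10ra was closest to Smad5 (0.23), Jak3 (0.29) and Tlr1 (0.32); Smad5 and Tlr1 also had their highest BDS value in BDS 7. The 2 chains of the interleukin-10 receptor were not among each other's closest genes, at a difference of 1.2, which was rank 153 of 356 from Il10ra and rank 99 from Il10rb. Il10 was closest to H2-K1 (0.63), Cd79a (0.66) and Nfkbia (0.70), of which H2-K1 and Nfkbia were far above the other controls in control 44. Il17f was closest to Stat5b (0.70), Il28a (0.71) and Il11ra1 (0.80), of which Stat5b and Il11ra1 were highest in BDS 21. These differences share the scaling of each sample and are descriptions.

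**Figure D5:**
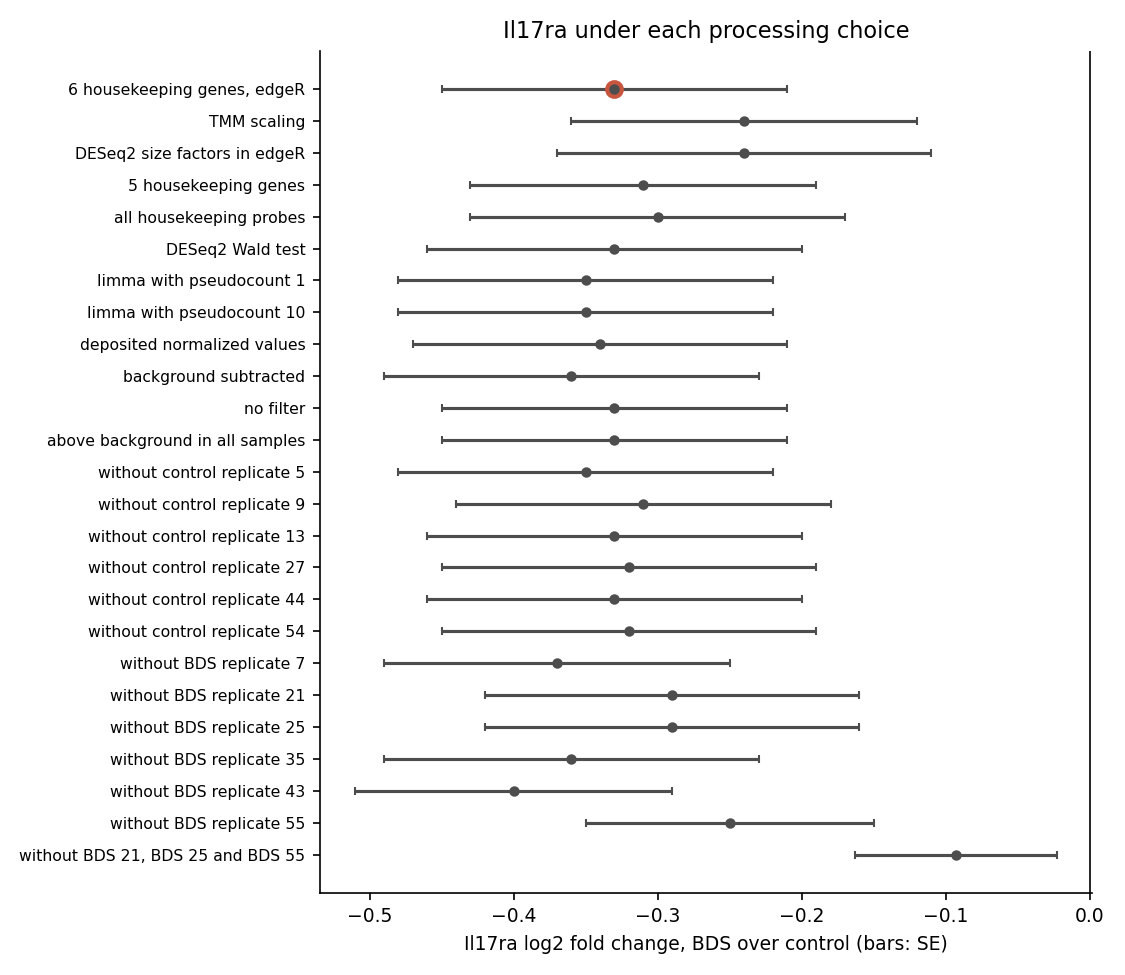
Log2 fold change of Il17ra, BDS over control (horizontal axis; points with SE bars), for the reported analysis in red and 24 other processing choices, one per line. The estimate lies between -0.40 and -0.25 when single samples are left out, at -0.24 with TMM scaling and at -0.093 without BDS 21, BDS 25 and BDS 55.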

How the data were processed

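Per the labels' protocols, RNA was converted to cDNA, amplified and hybridized to an nCounter mouse immune panel; barcode-reading software: not given in the sources used here. A first deposited table holds whole-number counts per probe (573 probes, 8 negative controls). The second deposited table holds scores, which are counts the authors rounded after normalizing to housekeeping genes and positive controls. It adds the authors' mean score per group, the percent of samples over background, a fold (linear ratio) and an unadjusted p-value.

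Counts were scaled by Alas1, Gapdh, Oaz1, Polr1b, Sdha and Tbp. Genes that exceeded the negative controls' mean by 2 SD in at least 40% of samples (5 of 12) were tested with edgeR 4.0.16 (quasi-likelihood, R 4.3.3, no covariates), with Benjamini-Hochberg adjustment over 357 genes. Standard errors are the fold change over the square root of F. Single values were tested by exact permutation over 924 rearrangements (smallest p 0.00216). Alternatives used limma 3.58.1, DESeq2 1.42.0, other scalings, filters and samples left out. The members and lists were chosen with earlier results of these data known. The named genes are the members, list genes at an unadjusted p under 0.05 or the 2 of smallest p, the 3 genes closest in pattern and the housekeeping genes; genes of lists named for being above background in few or 0 samples were picked after their values were seen. Some genes that this rule names are not reported here, though they stay in the counts. The test was checked on simulated data. Gene names are those of the files, which name no genome build.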

Additional observations from a re-analysis of the deposited data

Results flagged for a closer look

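A sample was picked out where its gap to the nearest of the other 5 samples of its group exceeded 0.625 of the range of the group; chance alone does this in about 1 in 20 groups, and 11 of 68 groups did. These include genes named for sharing a pattern with a member, so the groups are not independent. Il10 was high in control 44, at 35.6 normalized counts against at most 20.1 in the other controls, and in BDS 25, at 23.9 against at most 18.7. Il17f was high in BDS 21, at 52.6 against at most 23.3. The count ratio of Il17ra to Il10rb was low in control 5, at 0.913. Among genes of similar pattern or of the lists, control 44 was high in H2-K1 (6455 normalized counts) and Nfkbia (12340.0), BDS 7 in Smad5 (1616) and Tlr1 (1749), BDS 21 in Stat5b (1111) and Il11ra1 (44.1), and BDS 25 in Il6 (39.8).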

How the results depend on the processing

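Il17ra, Il10ra and Il10rb kept log2 fold changes below 0 and an adjusted p above 0.05 under each of 24 alternatives (adjusted p 0.083 to 0.91 for Il17ra, 0.094 to 0.98 for Il10ra and 0.30 to 0.97 for Il10rb). With single samples left out they ran from -0.40 to -0.25, from -0.21 to -0.096 and from -0.15 to -0.08. The sign of Il10 turned to 0.065 with TMM, 0.06 with DESeq2 size factors, 0.036 and 0.011 with limma at pseudocounts of 1 and 10, 0.03 with the deposited values and 0.23 without control 44, within a range of -0.13 to 0.23 over single samples left out; with background subtracted it was -0.59. That of Il17f turned to -0.41 with background subtracted, -0.11 without BDS 21 and -0.042 without BDS 21, BDS 25 and BDS 55, with -0.11 to 0.25 over single samples left out; adjusted p-values were 0.58 to 0.99 for Il10 and 0.63 to 1.0 for Il17f. The count of genes at an unadjusted p under 0.05, 44 as reported, was 29 with DESeq2 size factors, 20 without those 3 samples and 26 to 96 with single samples left out. It was 96 without BDS 7, and 26 without BDS 25 and also without BDS 55. Genes past the adjusted threshold numbered 0 to 4 there, the 4 without BDS 7. The cause was not tested. Of the 7 members, 4 passed the filter with a limit of the mean plus 3 SD, which Il10 passed in 1 sample, and 5 with the 2 other limits. Counts of Il10 and Il17f lay within 1.79 and 1.71 times the background limit. No paired analysis was possible because the groups share no replicate number. The alternatives for Il10, Il17f and the ratios were chosen after seeing the data.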
